A study of Homo sapiens with 6 samples.

Results

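The genes described here are 57 enzymes and complex subunits that write, erase or read methyl groups on histones and on DNA. They were taken by name, by their known function and with no threshold on their values, from the 60504 genes of the count table. The 57 members are 7 subunits of polycomb repressive complex 2 (PRC2), 13 subunits of polycomb repressive complex 1 (PRC1), 8 histone H3K4 methyltransferases, 5 methyltransferases of the H3K36, H3K79 and SMYD groups, 6 H3K9 methyltransferases, 11 histone demethylases and 7 enzymes and cofactors of DNA methylation.

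RNA was measured in SK-MEL-28, an established human melanoma cell line, with 3 libraries labelled EV and 3 labelled HDAC8. The EV libraries came from control cells that received an empty plasmid and the HDAC8 libraries from cells that received a plasmid carrying HDAC8, a class I histone deacetylase. By the study's methods the plasmids were introduced with a lipid reagent and both kinds of cells were kept in hygromycin. The comparison asks which genes differ in RNA level between these cells. The labels number the libraries of each group 1 to 3 as biological replicates, but nothing states that they came from separate cultures, so the p-values measure the spread between these libraries. The libraries held between 20850018 and 29822917 counts, so that 3 counts corresponded to between 0.101 and 0.144 CPM, the counts of a gene scaled to a common library size.

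HDAC8 itself (ENSG00000147099) was measured at 16.6, 15.2 and 11.8 CPM in the libraries labelled EV and at 14.2, 15.2 and 13.5 CPM in the libraries labelled HDAC8. The ranges overlapped and the log2 fold change of the libraries labelled HDAC8 over those labelled EV was -0.024 (standard error 0.13, edgeR adjusted p = 0.924). The introduced gene therefore did not separate the groups in RNA, and it was not stated whether reads of the plasmid were counted on this gene. The study also probed HDAC8 protein by immunoblot in melanoma cells given either plasmid, which these counts do not measure. Each direction given here is that of the libraries as labelled. Of 7 markers of the melanocyte lineage, 6 had a mean above 1 CPM, and of the 7, 4 rose and 2 fell. The 7 summed to between 6376 and 6761 CPM in the EV libraries and between 7412 and 7937 CPM in the HDAC8 libraries. Most of this sum was PMEL, with a mean of 4149 CPM in the EV libraries and 5254 CPM in the HDAC8 libraries. Of 16 markers of other cell types, 12 had a mean under 1 CPM, 1 was at 0 in every library and none of the 3 that could be tested passed, with edgeR, with DESeq2 or at an unadjusted p below 0.05.

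Polycomb complexes keep developmental genes silent. PRC2 places methyl groups on lysine 27 of histone H3, and PRC1 carries chromobox (CBX) subunits that bind this mark and RING subunits that attach ubiquitin to histone H2A. Methylation of H3K4 and H3K36 accompanies active genes and methylation of H3K9 accompanies silent chromatin, and each mark is removed by demethylases. DNA methyltransferases (DNMT) methylate cytosine at CG dinucleotides, UHRF1 brings DNMT1 to newly replicated DNA, and TET enzymes oxidise methylcytosine as the first step of its removal.

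All 57 members passed the filter on low counts and were tested. Of these, 17 (29.8%) had an adjusted p below 0.05 in edgeR's quasi-likelihood test over 16195 genes, against 22.7% of all tested genes and 31% of the 8832 tested genes whose mean level was at least that of the lowest member. BMI1, NSD1, SMYD3, EHMT2, DNMT3B, TET1 and TET2 rose in the libraries labelled HDAC8, and without EV replicate 3 only 3 members rose. EED, RBBP4, CBX6, CBX7, PHC2, PHC3, KMT2E, DNMT3A, TET3 and UHRF1 fell. Among the members only CBX6 also passed an absolute log2 fold change of 0.58. Of all tested genes 7.52% met both criteria, 4.07% higher and 3.45% lower, and of those at the members' levels 4.68% did. The median log2 fold change of the members was -0.017 and that of all tested genes 0.0091, and the median absolute log2 fold change was 0.13 for the members and 0.19 for all tested genes. In 29 members the EV and HDAC8 libraries did not overlap, 11 of them higher and 18 lower. Of all tested genes 38% showed such a separation, 18.7% higher and 19.4% lower. All tested genes include genes at lower levels than the members, and the share at the members' levels was not computed for this separation. The 29 are therefore not read as an excess. In bulk RNA, a lower level in every cell and fewer cells with the gene cannot be told apart.

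For the 40 members that did not pass, the data limit how large a change could have been missed. Each of their 95% intervals lay within 0.58 of 0 on the log2 scale, and the bound farthest from 0 among them was 0.45 in size. Standard errors of the 57 members ran from 0.044 to 0.11 on the log2 scale.

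**Figure D1:**
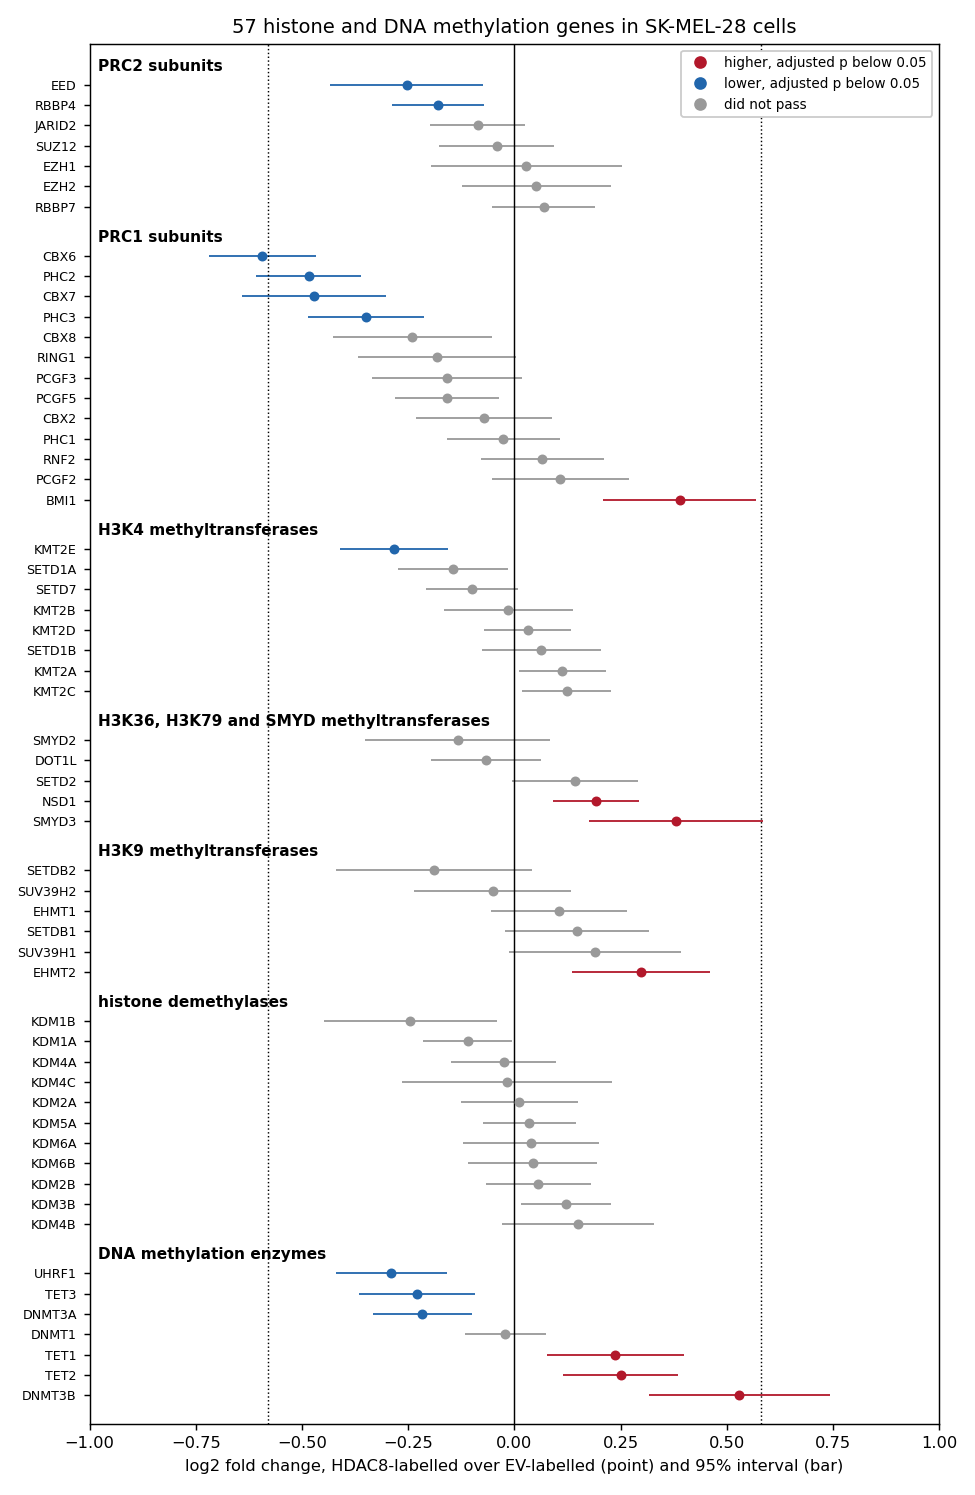
Log2 fold change of the libraries labelled HDAC8 over those labelled EV for each of the 57 members, grouped by role and sorted within a role (point), with its 95% interval from edgeR (bar, n = 3 libraries a group). Dotted lines mark 0.58 in either direction. The 10 members in blue fell and the 7 in red rose, CBX6 is the only point beyond a dotted line, and all 11 demethylases are grey.

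PRC1 held the 4 largest falls among the members. Of its 13 subunits, 4 fell, 1 rose and 8 did not pass. The 5 that passed are 38.5% of the 13, against 22.7% of all tested genes and 31% of those at the members' levels. Of the 13 log2 fold changes 10 were negative, with a median of -0.16, whereas 51.44% of all tested genes had a positive one. The subunits that fell were the chromobox proteins CBX6 and CBX7, which dock the complex on methylated H3K27, and the polyhomeotic proteins PHC2 and PHC3, which join complexes to each other. BMI1 (PCGF4), the partner of the RING ubiquitin ligases, rose.

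CBX6 (ENSG00000183741, chromosome 22, 38861422 to 38872249 on GRCh38) was the most abundant member per exon length, at 94.2 ± 5.8 CPM per kilobase (SD, n = 3) in the EV libraries and 62.5 ± 4.06 (SD, n = 3) in the HDAC8 libraries. It was measured at 792.0, 701.7 and 765.4 CPM in the EV libraries and at 467.5, 498.2 and 532.4 CPM in the HDAC8 libraries. Every HDAC8 library lay below every EV library, and the mean fell to 66.3% of the EV level. The log2 fold change was -0.59 (standard error 0.058, edgeR adjusted p = 1.79e-05). Without EV replicate 1 it was -0.56 and without HDAC8 replicate 1 it was -0.55, so that CBX6 then passed the test but not the criterion of 0.58.

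CBX7 (ENSG00000100307, chromosome 22, 39120167 to 39152680), which is also known for holding the INK4A/ARF locus silent, was measured at 50.1, 54.9 and 50.5 CPM in the EV libraries and at 34.5, 36.5 and 41.1 CPM in the HDAC8 libraries. All HDAC8 libraries lay below the EV libraries, and the log2 fold change was -0.47 (standard error 0.078, edgeR adjusted p = 9.64e-04). The other chromobox subunits did not pass the test. CBX8 had 24.0, 21.96 and 22.7 CPM against 18.0, 20.4 and 19.9 CPM, without overlap (log2 fold change -0.24, edgeR adjusted p = 0.0655). CBX2 overlapped between the groups, with a log2 fold change of -0.071 and a 95% interval from -0.23 to 0.088.

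CBX6 and CBX7 lie on the same arm of chromosome 22 with 247917 bases between them. In the window that holds both genes and 200000 bases on either side, 19 genes were tested, of which 6 fell and 0 rose. Of all tested genes 11.7% fell and 11.1% rose. Besides CBX6 and CBX7, and named after their values were seen, NPTXR had a log2 fold change of -0.95 (edgeR adjusted p = 1.2e-05), APOBEC3G -0.54 (0.017), JOSD1 -0.37 (2.54e-04) and APOBEC3F -0.34 (0.00697). The part of the shared position in the fall of CBX6 and CBX7 was not tested.

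PHC2 (ENSG00000134686, chromosome 1, 33323623 to 33431095) was measured at 271.1, 253.6 and 250.7 CPM in the EV libraries. In the HDAC8 libraries it was measured at 171.9, 186.8 and 196.1 CPM, below every EV library. The log2 fold change was -0.48 (standard error 0.057, edgeR adjusted p = 7.64e-05), a mean of 71.5% of the EV level. PHC3 (ENSG00000173889, chromosome 3, 170086732 to 170181749) showed the same separation. It had 97.1, 104.9 and 91.0 CPM against 78.7, 74.2 and 77.1 CPM (log2 fold change -0.35, standard error 0.062, edgeR adjusted p = 0.0017). PHC1, the third polyhomeotic gene, overlapped between the groups (log2 fold change -0.026, 95% interval from -0.16 to 0.11).

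BMI1 (ENSG00000168283, chromosome 10, 22321099 to 22331484) was measured at 75.9, 76.6 and 82.6 CPM in the EV libraries and at 114.7, 103.6 and 89.2 CPM in the HDAC8 libraries. Again the groups were apart, although HDAC8 replicate 3 lay near the EV libraries. The log2 fold change was 0.39 (standard error 0.083, edgeR adjusted p = 0.00509). A read-through gene, COMMD3-BMI1, shares the exons of BMI1, and the estimated counts of BMI1 were not whole in 5 of the 6 libraries, which occurs where reads match more than 1 feature. With which feature these reads were shared was not tested. COMMD3-BMI1 itself was measured at 6.64, 5.06 and 7.04 CPM and at 15.9, 8.88 and 12.3 CPM (log2 fold change 0.99, edgeR adjusted p = 0.00436). Summed, the pair gave 82.5, 81.6 and 89.6 CPM in the EV libraries and 130.7, 112.5 and 101.5 CPM in the HDAC8 libraries, which again did not overlap. Of the 20 nearest tested genes around BMI1, 6 rose, 0 fell, and their median log2 fold change was 0.26. COMMD3-BMI1, which shares exons with BMI1, is counted among these 20. Of all tested genes 11.1% rose. The part of the region in the rise of BMI1 was not tested.

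The remaining PRC1 subunits did not pass. The ligases RNF2 and RING1, which attach ubiquitin to histone H2A, had log2 fold changes of 0.066 (95% interval from -0.079 to 0.21) and -0.18 (95% interval from -0.37 to 0.0049). PCGF5, the partner of RING in a PRC1 without chromobox subunits, had 71.5, 69.3 and 72.4 CPM against 65.7, 63.8 and 61.4 CPM, which did not overlap (log2 fold change -0.16, edgeR adjusted p = 0.0631). It passed in 1 of 11 alternative analyses, the one that required 10 or more counts in each of the libraries (adjusted p = 0.0466).

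**Figure D2:**
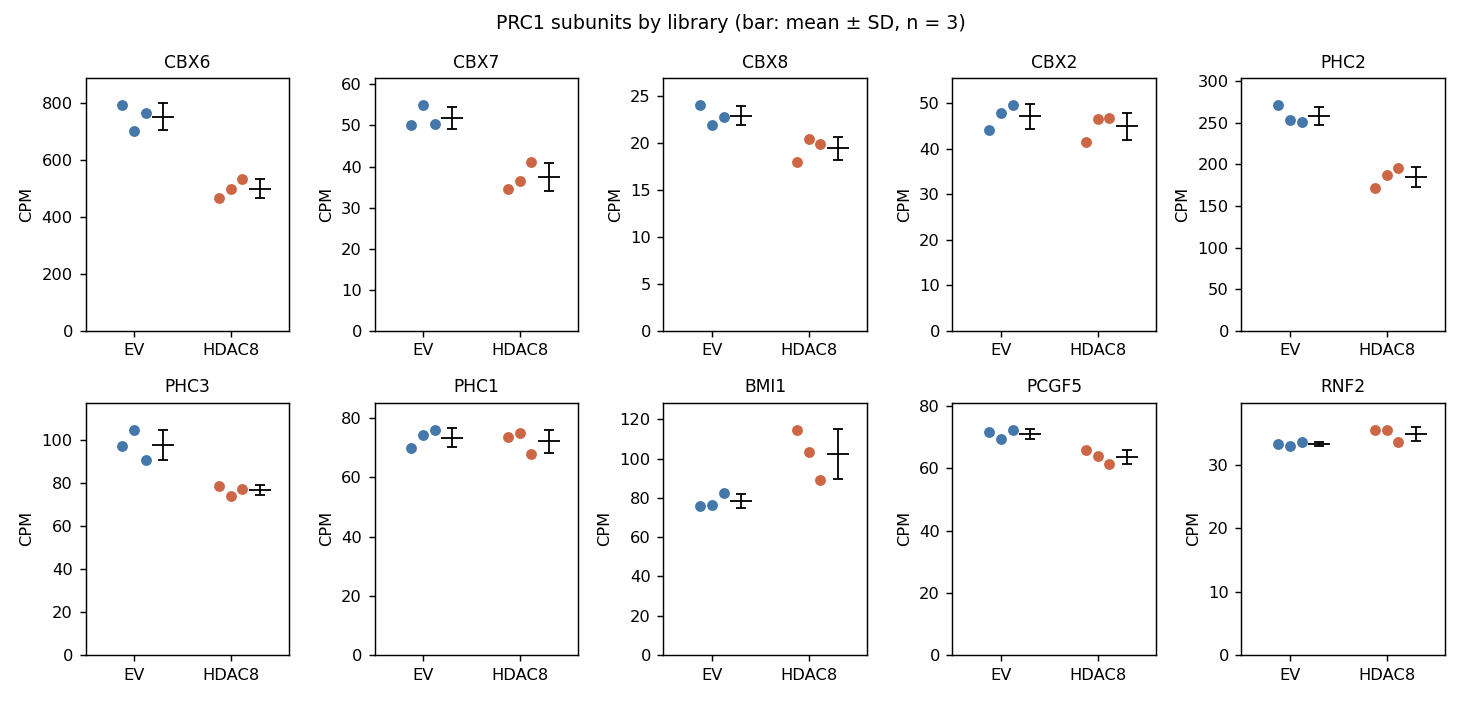
Level of 10 PRC1 subunits in each library (points, CPM on a linear axis from 0) for the libraries labelled EV and HDAC8, with the mean and SD of 3 libraries beside them. CBX6, CBX7, PHC2 and PHC3 lie lower in every HDAC8 library, BMI1 lies higher, and CBX2 and PHC1 overlap.

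The promoters of 3 PRC1 genes that hold an E-box, CBX6 and PHC2 among those that fell and BMI1 that rose, are shown. An E-box is the site bound by MITF, the melanocyte lineage factor, and by MYC and related proteins. Each sequence is the 250 bases before the RefSeq start on GRCh38.p14, written 5′ to 3′ on the strand of the gene. CACGTG and CATGTG are in capitals. CBX7, which also fell, holds neither in its window, and PHC3, which fell too, holds CACGTG. Their windows are not shown. The CBX6 window is chr22:38872217-38872466 on the minus strand, the PHC2 window chr1:33431096-33431345 on the minus strand and the BMI1 window chr10:22320849-22321098 on the plus strand.
CBX6: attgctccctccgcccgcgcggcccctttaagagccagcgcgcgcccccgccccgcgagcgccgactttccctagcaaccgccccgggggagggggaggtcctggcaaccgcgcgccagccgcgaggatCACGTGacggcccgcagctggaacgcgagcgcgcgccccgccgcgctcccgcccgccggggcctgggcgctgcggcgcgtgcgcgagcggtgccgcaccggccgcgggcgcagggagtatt
PHC2: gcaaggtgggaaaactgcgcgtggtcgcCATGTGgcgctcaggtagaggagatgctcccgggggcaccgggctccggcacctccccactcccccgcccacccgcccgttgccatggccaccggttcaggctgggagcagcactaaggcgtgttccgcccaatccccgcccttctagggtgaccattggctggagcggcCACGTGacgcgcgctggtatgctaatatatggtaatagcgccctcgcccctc
BMI1: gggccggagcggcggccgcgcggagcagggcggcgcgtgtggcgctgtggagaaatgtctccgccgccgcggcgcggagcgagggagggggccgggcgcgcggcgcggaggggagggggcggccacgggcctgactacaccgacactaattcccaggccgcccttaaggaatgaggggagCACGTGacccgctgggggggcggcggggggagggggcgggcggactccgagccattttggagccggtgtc

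The E-box CACGTG, which reads alike on both strands, was searched in the same window of the 53 members that matched the RefSeq table. CBX2, CBX8, DOT1L and SETD1B were not matched. It was found in 14 of the 53, which were 4 of the 7 members that rose, 5 of the 10 that fell and 5 of the 36 that did not pass, a count given without a test. Of all 27305 promoters of the table, 6.49% held it. Among the 10774 tested genes with a promoter the share was 8.78%, and it was 8.25% for genes that rose, 9.21% for genes that fell and 8.8% for genes that did not pass. Across all tested genes the E-box was therefore about as frequent whatever the direction. The members with this E-box were BMI1, NSD1, EHMT2 and TET2 among those that rose, and RBBP4, PHC2, PHC3, CBX6 and TET3 among those that fell. The variant CATGTG, searched on both strands, was found in 2 members, PHC2 and PCGF2, in 9.54% of all promoters and in 5.7% of those of tested genes. The AP-1 motif TGANTCA, searched on both strands, was found in 2 members, KDM4C and KDM6A, in 6.6% of all promoters and in 3.95% of those of tested genes. A match describes the letters of the window and not binding.

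The members' promoters held many CG dinucleotides, the sites that the DNA methylation enzymes act on. The median was 25 in 250 bases for the members, 21 for tested genes and 11 for all promoters of the table. The windows above hold 45 for CBX6, 21 for PHC2 and 35 for BMI1.

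Of the 7 PRC2 subunits, 2 fell and none rose, and the catalytic subunits did not pass. The share that passed was 28.6%, against 22.7% of all tested genes and 31% of those at the members' levels. EZH2, the main H3K27 methyltransferase, was measured at 35.9, 34.0 and 34.99 CPM in the EV libraries and at 38.4, 38.0 and 32.3 CPM in the HDAC8 libraries. These ranges overlapped (log2 fold change 0.052, 95% interval from -0.12 to 0.23). EZH1, its paralog, had a log2 fold change of 0.029 (95% interval from -0.2 to 0.25), and SUZ12, the scaffold of the complex, had one of -0.041 (95% interval from -0.18 to 0.094).

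EED (ENSG00000074266, chromosome 11, 86201212 to 86278813), which binds methylated H3K27 and stimulates the enzyme, was measured at 21.96, 23.0 and 24.7 CPM in the EV libraries and at 19.4, 19.1 and 20.1 CPM in the HDAC8 libraries. No HDAC8 library reached the EV range (log2 fold change -0.25, standard error 0.082, edgeR adjusted p = 0.0458). The call was close to the threshold. It was lost without any one of EV replicates 1, 2 and 3 and HDAC8 replicates 1 and 2 (adjusted p from 0.06425 to 0.186), and with DESeq2 (0.084), upper-quartile normalization (0.0542) and no filter on low counts (0.0694).

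RBBP4 (ENSG00000162521, chromosome 1, 32651142 to 32686211), a histone-binding subunit that PRC2 shares with deacetylase complexes, was measured at 355.1, 360.8 and 335.6 CPM in the EV libraries and at 326.2, 301.4 and 300.2 CPM in the HDAC8 libraries. The HDAC8 libraries lay below the EV libraries, and the log2 fold change was -0.18 (standard error 0.049, edgeR adjusted p = 0.0206). It did not pass without EV replicate 1 (0.0822), EV replicate 2 (0.0736) or HDAC8 replicate 2 (0.0698). Its close relative RBBP7 overlapped between the groups, with a log2 fold change of 0.069. JARID2, a subunit that guides PRC2 to its targets, had 92.7, 95.9 and 94.6 CPM against 91.8, 87.6 and 87.2 CPM, which did not overlap (log2 fold change -0.086, edgeR adjusted p = 0.271).

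Among the 8 H3K4 methyltransferases, 1 fell and none rose, a share of 12.5% against 22.7% of all tested genes. KMT2E (ENSG00000005483, chromosome 7, 104940943 to 105115019), a family member that binds methylated H3K4 rather than being known as an active enzyme, was measured at 159.8, 161.1 and 159.3 CPM in the EV libraries. In the HDAC8 libraries it was measured at 138.0, 136.8 and 119.9 CPM, below every EV library. The log2 fold change was -0.28 (standard error 0.058, edgeR adjusted p = 0.00417). The other 7, KMT2A, KMT2B, KMT2C, KMT2D, SETD1A, SETD1B and SETD7, had log2 fold changes between -0.14 and 0.12. KMT2C, which methylates H3K4 at enhancers, had 320.1, 350.1 and 324.7 CPM against 360.4, 351.4 and 371.6 CPM (log2 fold change 0.12, edgeR adjusted p = 0.0897). Without EV replicate 2 its log2 fold change was 0.16 (adjusted p = 0.0413).

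In the H3K36, H3K79 and SMYD group, 2 of 5 rose and none fell, and of all tested genes 11.1% rose. NSD1 (ENSG00000165671, chromosome 5, 177131830 to 177300213), which places the first methyl groups on H3K36, was measured at 203.3, 195.7 and 200.3 CPM in the EV libraries and at 223.0, 223.6 and 237.8 CPM in the HDAC8 libraries. The groups did not overlap (log2 fold change 0.19, standard error 0.046, edgeR adjusted p = 0.0105), and without EV replicate 3 the adjusted p was 0.0506. SMYD3 (ENSG00000185420, chromosome 1, 245749342 to 246507312), a lysine methyltransferase of histones and cytoplasmic proteins, was measured at 16.1, 16.4 and 14.2 CPM against 20.0, 19.5 and 21.2 CPM. These did not overlap either (log2 fold change 0.38, standard error 0.093, edgeR adjusted p = 0.0116), and without EV replicate 3 the adjusted p was 0.064. SETD2, which completes H3K36 trimethylation, overlapped between the groups (log2 fold change 0.14, edgeR adjusted p = 0.163) and passed without HDAC8 replicate 3 (adjusted p = 0.0122). DOT1L, the H3K79 methyltransferase, and SMYD2 had log2 fold changes of -0.067 and -0.13.

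Among the 6 H3K9 methyltransferases, EHMT2 (ENSG00000204371, chromosome 6, 31879759 to 31897698) rose and the others did not pass. The share that passed was 16.7%, against 22.7% of all tested genes. EHMT2, also called G9a, places methyl groups on H3K9 in euchromatin together with EHMT1. It was measured at 56.5, 59.8 and 67.9 CPM in the EV libraries and at 74.5, 72.1 and 80.0 CPM in the HDAC8 libraries, without overlap. The log2 fold change was 0.3 (standard error 0.074, edgeR adjusted p = 0.0128), and it did not pass without EV replicate 1 (0.0766) or EV replicate 2 (0.0583). EHMT1 overlapped between the groups (log2 fold change 0.11, edgeR adjusted p = 0.351). SETDB1, SETDB2, SUV39H1 and SUV39H2 had log2 fold changes between -0.19 and 0.19.

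None of the 11 histone demethylases passed edgeR's test or DESeq2. Of all tested genes 22.7% passed edgeR's test, and of those at the members' levels 31% did. At an unadjusted p below 0.05 in edgeR, 1 demethylase was higher and 2 were lower. The log2 fold changes of the 11 lay between -0.24 (KDM1B) and 0.15 (KDM4B), with a median of 0.035. The groups did not overlap in 2 of the 11, and in 38% of all tested genes of any level. KDM6A and KDM6B, which remove the H3K27 mark that PRC2 places, had log2 fold changes of 0.039 and 0.043. KDM1B, which removes methyl groups from H3K4, had 41.1, 35.1 and 39.1 CPM against 36.5, 31.04 and 29.5 CPM (edgeR adjusted p = 0.0828). It passed without HDAC8 replicate 1 (log2 fold change -0.35, adjusted p = 0.016) and with no filter on low counts (adjusted p = 0.0221).

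Of the 7 members of the DNA methylation group, 3 rose, 3 fell and DNMT1 did not pass. The 6 that passed are 85.7% of the group, against 22.7% of all tested genes and 31% of those at the members' levels. With DESeq2, 2 were higher and 3 lower. The rises and falls divided paralogs: DNMT3B rose and DNMT3A fell, and TET1 and TET2 rose while TET3 fell.

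DNMT3B (ENSG00000088305, chromosome 20, 32762385 to 32809359), a de novo methyltransferase, was measured at 12.6, 12.1 and 11.47 CPM in the EV libraries and at 16.6, 18.5 and 17.2 CPM in the HDAC8 libraries. Every HDAC8 library lay above every EV library. The log2 fold change was 0.53 (standard error 0.098, edgeR adjusted p = 0.00208), the largest rise among the 57 members. DNMT3A (ENSG00000119772, chromosome 2, 25227855 to 25342590), the other de novo enzyme, was measured at 70.6, 71.7 and 72.9 CPM against 61.6, 61.5 and 62.1 CPM. The groups were tight and did not overlap (log2 fold change -0.22, standard error 0.053, edgeR adjusted p = 0.0115), and without EV replicate 3 the adjusted p was 0.0597. The ratio of DNMT3B to DNMT3A in counts per kilobase of exon was 0.358, 0.339 and 0.315 in the EV libraries and 0.539, 0.603 and 0.557 in the HDAC8 libraries. DNMT1, the maintenance methyltransferase, was measured at 251.7, 246.0 and 245.2 CPM and at 240.1, 239.6 and 252.4 CPM, which overlapped (log2 fold change -0.021, 95% interval from -0.12 to 0.075).

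UHRF1 (ENSG00000276043, chromosome 19, 4903080 to 4962154), which recognises hemimethylated DNA behind the replication fork, was measured at 116.3, 105.4 and 120.4 CPM in the EV libraries and at 94.7, 90.3 and 94.9 CPM in the HDAC8 libraries. The groups did not overlap (log2 fold change -0.29, standard error 0.059, edgeR adjusted p = 0.00417). UHRF1 is one of 3 members, with KDM1B and SUZ12, whose promoter window holds an E2F motif. The motif was searched as TTTCCCGC or TTTGGCGC on both strands and stood in 1.96% of all promoters and in 3.08% of those of tested genes. E2F factors drive genes of DNA replication. The UHRF1 window, chr19:4909251-4909500 on the plus strand of GRCh38.p14, is shown with the motif in capitals, here read on the opposite strand.
UHRF1: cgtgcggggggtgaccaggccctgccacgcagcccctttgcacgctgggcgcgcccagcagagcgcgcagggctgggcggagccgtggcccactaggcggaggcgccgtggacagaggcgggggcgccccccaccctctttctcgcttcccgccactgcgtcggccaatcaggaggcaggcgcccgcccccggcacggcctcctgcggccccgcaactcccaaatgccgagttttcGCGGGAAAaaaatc

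TET1 (ENSG00000138336, chromosome 10, 68560337 to 68694487) was measured at 30.3, 28.8 and 26.8 CPM in the EV libraries and at 34.5, 32.9 and 33.8 CPM in the HDAC8 libraries, without overlap. Its log2 fold change was 0.24 (standard error 0.074, edgeR adjusted p = 0.0375). The call was lost without any one of the 6 libraries (adjusted p from 0.0521 without EV replicate 1 to 0.159 without EV replicate 3), with DESeq2 (0.0586) and with no filter on low counts (0.0633).

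TET2 (ENSG00000168769, chromosome 4, 105145875 to 105279816) was measured at 44.3, 43.6 and 44.1 CPM in the EV libraries and at 54.8, 52.3 and 49.8 CPM in the HDAC8 libraries. The groups did not overlap (log2 fold change 0.25, standard error 0.062, edgeR adjusted p = 0.0125), and it did not pass without EV replicate 3 (0.0506) or HDAC8 replicate 1 (0.0561). TET3 (ENSG00000187605, chromosome 2, 73984910 to 74108176) moved the other way, with 95.4, 92.2 and 91.5 CPM in the EV libraries and 76.97, 74.9 and 86.1 CPM in the HDAC8 libraries. These did not overlap (log2 fold change -0.23, standard error 0.062, edgeR adjusted p = 0.0199). TET3 passed without HDAC8 replicate 3 but in none of the other 5 fits that left out a library (adjusted p from 0.0508 without EV replicate 2 to 0.0873 without EV replicate 1).

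**Figure D3:**
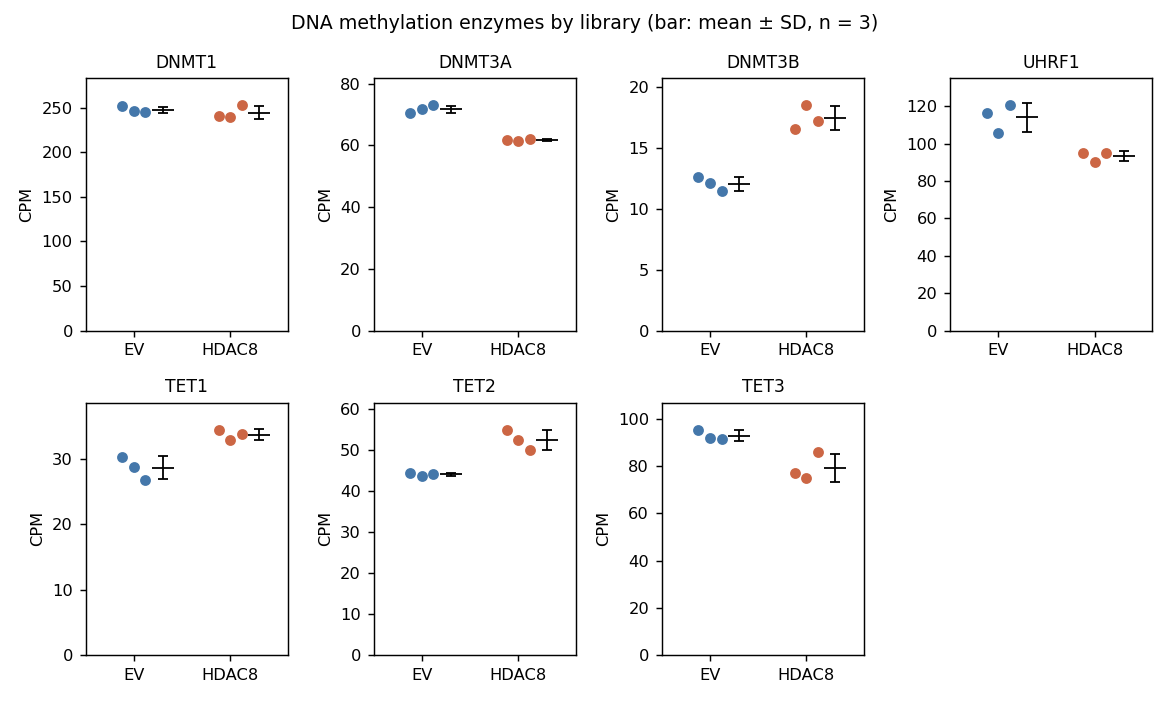
Level of the 7 DNA methylation genes in each library (points, CPM on a linear axis from 0) for the libraries labelled EV and HDAC8, with the mean and SD of 3 libraries beside them. DNMT3B, TET1 and TET2 lie higher and DNMT3A, TET3 and UHRF1 lower in every HDAC8 library, and DNMT1 overlaps.

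Levels of paralogs were then compared per kilobase of summed exon length, as shares of the members of their family in each library. CBX6 held most of the RNA of the 4 chromobox members (CBX2, CBX6, CBX7 and CBX8), 81.9% ± 1.2 (SD, n = 3) in the EV libraries and 78.0% ± 0.369 (SD, n = 3) in the HDAC8 libraries, and the summed level of these 4 went from 115.0 ± 5.47 to 80.1 ± 5.2 CPM per kilobase. PHC2 held 72.4% ± 1.4 (SD, n = 3) of the polyhomeotic RNA and then 67.1% ± 2.19 (SD, n = 3), and the summed level went from 64.3 ± 1.56 to 49.6 ± 1.73 CPM per kilobase. In both groups of paralogs the most abundant gene was one of those that fell, and the summed levels of these members were lower in every HDAC8 library.

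The DNMT and TET families differed from these in that their summed levels overlapped between the groups. TET RNA summed to 12.8 ± 0.35 CPM per kilobase (SD, n = 3) in the EV libraries and 12.8 ± 0.412 (SD, n = 3) in the HDAC8 libraries. The share of TET3 in it was 55.8%, 55.8% and 56.4% in the EV libraries and 46.2%, 46.7% and 50.4% in the HDAC8 libraries. DNMT RNA summed to 23.1 ± 0.229 and 22.9 ± 0.481 CPM per kilobase (SD, n = 3 each), of which DNMT3B held 7.61% ± 0.297 and 11.1% ± 0.652. Among the 4 PCGF members (BMI1, PCGF2, PCGF3 and PCGF5) the share of BMI1 was 40.4% ± 1.47 in the EV libraries and 47.6% ± 2.45 in the HDAC8 libraries. With PCGF1 and PCGF6, which are no members, in the sum it was 30.7% ± 0.936 and 36.9% ± 2.63. EZH1 held 52.8% ± 3.53 and 52.4% ± 4.72 of the EZH RNA, with overlapping libraries. These shares are given as a description, without a test, and depend on the exon length taken for each gene.

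**Figure D4:**
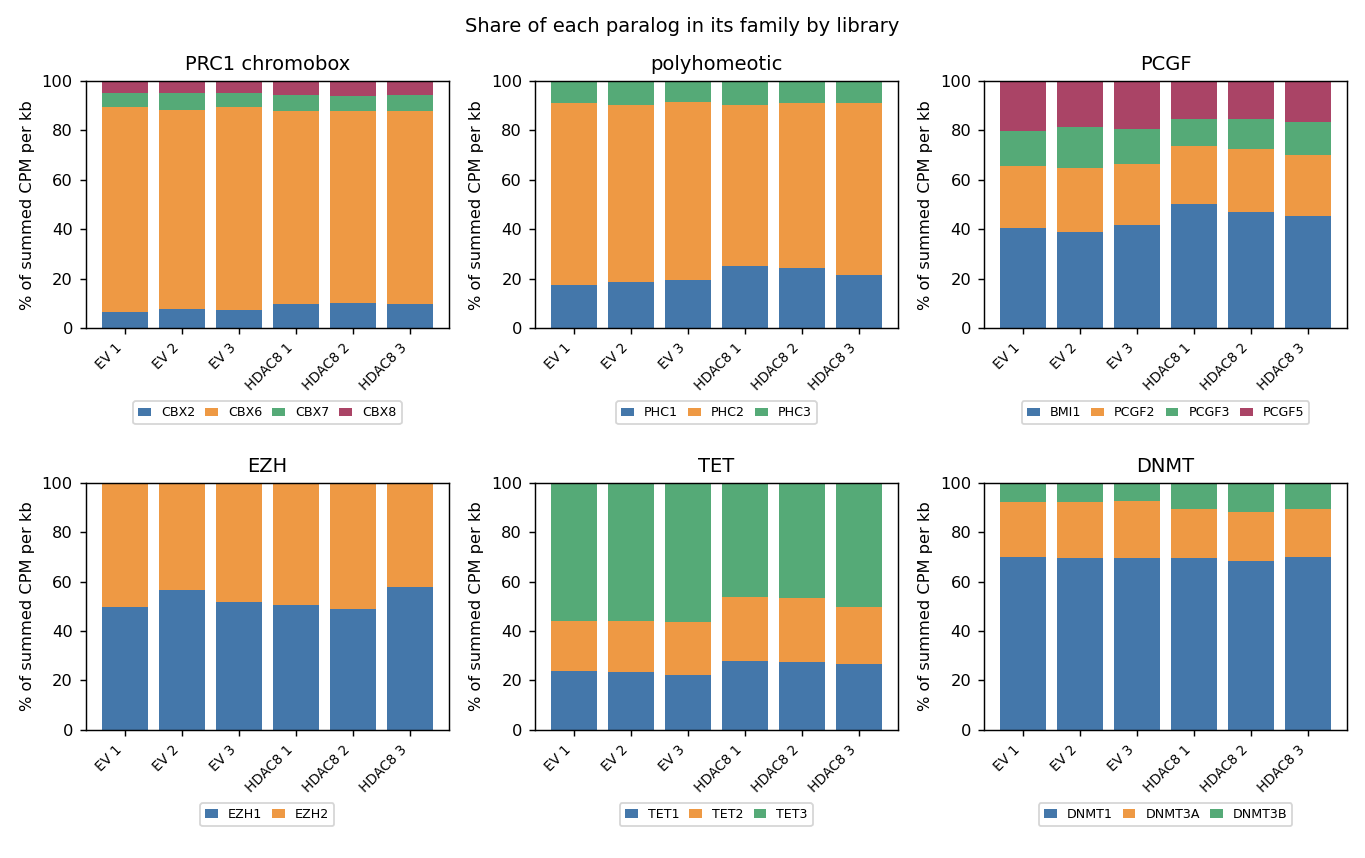
Share of each paralog in the summed level of the members of its family (% of summed CPM per kilobase of exon, stacked to 100, members only) in each of the 3 EV and 3 HDAC8 libraries. CBX6 and PHC2 hold most of the RNA of their panels in every library, the share of TET3 is lower and those of DNMT3B and BMI1 higher in every HDAC8 library, and the EZH shares overlap.

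Beside the members, 7 lists held other genes of the same machinery, 94 genes of which 88 were tested. Of these 7 rose and 9 fell, or 18.2% of those tested, against 22.7% of all tested genes and 31% of those at the members' levels. Some of the 88 lie below those levels. None of the 12 shared and adaptor subunits of COMPASS methyltransferase complexes passed edgeR's test or DESeq2. At an unadjusted p below 0.05 in edgeR, 0 were higher and 2 lower. Among arginine methyltransferases, 1 of the 9 tested rose: PRMT1, the main source of asymmetric arginine methylation (log2 fold change 0.26, edgeR adjusted p = 0.00488).

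Of the 21 other polycomb genes tested, 2 rose and 2 fell. AEBP2, an accessory subunit of PRC2 (chromosome 12, 19404045 to 19720801), had the largest rise among the 88. It was measured at 62.2, 64.2 and 60.8 CPM in the EV libraries and at 133.5, 141.4 and 122.4 CPM in the HDAC8 libraries (log2 fold change 1.09, standard error 0.062, edgeR adjusted p = 1.67e-07). Of its 20 nearest tested genes, 13 rose and 2 fell, and their median log2 fold change was 1.05. Of all tested genes 11.1% rose and 11.7% fell. The part of this region in the rise of AEBP2 was not tested. PHF19, a PRC2 subunit that reads methylated H3K36, fell from 155.0, 151.7 and 140.3 to 115.5, 109.7 and 120.9 CPM (log2 fold change -0.37, edgeR adjusted p = 6.00e-04). L3MBTL2, a subunit of a PRC1 variant, fell (log2 fold change -0.21, edgeR adjusted p = 0.0382), and USP7, a ubiquitin protease bound by PRC1 and named after its values were seen, rose (log2 fold change 0.18, edgeR adjusted p = 0.0453). L3MBTL2 did not pass without EV replicate 1 or 3 or HDAC8 replicate 1 or 2 (adjusted p from 0.0922 to 0.17), and USP7 passed without HDAC8 replicate 3 but in none of the other 5 such fits (adjusted p from 0.0845 to 0.181).

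Of the 13 other demethylases, 1 rose and 2 fell, or 23.1%, against 22.7% of all tested genes. KDM5B, an H3K4 demethylase known in melanoma for marking slowly cycling cells, was measured at 147.6, 142.7 and 135.4 CPM in the EV libraries and at 216.0, 203.4 and 215.2 CPM in the HDAC8 libraries. The groups did not overlap (log2 fold change 0.577, standard error 0.0503, edgeR adjusted p = 6.5e-06). Its member paralog KDM5A had a log2 fold change of 0.035. RIOX2 (log2 fold change -0.47, edgeR adjusted p = 0.00207) and KDM3A (log2 fold change -0.18, edgeR adjusted p = 0.0194) fell. KDM3A passed without HDAC8 replicate 3 but not without any one of the other 5 libraries (adjusted p from 0.0558 to 0.0761).

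Of the 12 readers of methyl marks, 2 rose and 4 fell, or 50%, against 22.7% of all tested genes. MBD2 and ZBTB33, proteins that bind methylated DNA, rose by log2 fold changes of 0.36 (edgeR adjusted p = 0.00894) and 0.35 (edgeR adjusted p = 0.00113). MPHOSPH8, which binds methylated H3K9, fell (log2 fold change -0.38, edgeR adjusted p = 0.0164), as did CBX5, MBD4 and UHRF2, named after their values were seen, with log2 fold changes of -0.28, -0.32 and -0.23. Calls were lost for MBD2 without HDAC8 replicate 2 (0.0503), for MPHOSPH8 without EV replicate 1 (0.0551) or 2 (0.0618), for MBD4 without EV replicate 3 (0.0541) and for UHRF2 without EV replicate 1 (0.0526) or 3 (0.0653) or HDAC8 replicate 2 (0.0521). IDH1, which makes the cosubstrate of TET enzymes and demethylases, was the only one of 8 tested genes of a list of other DNA methylation and repair genes to pass, with a log2 fold change of 0.41 (edgeR adjusted p = 6.07e-05). Of the 13 other lysine methyltransferases tested, MECOM, named after its values were seen, passed at a level near the floor. It had 1.72, 0.813 and 1.14 CPM in the EV libraries and 0.204, 0 and 0.0431 CPM in the HDAC8 libraries, and its fitted log2 fold change of -3.65 depends on how such low counts are treated (edgeR adjusted p = 0.00358).

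**Figure D5:**
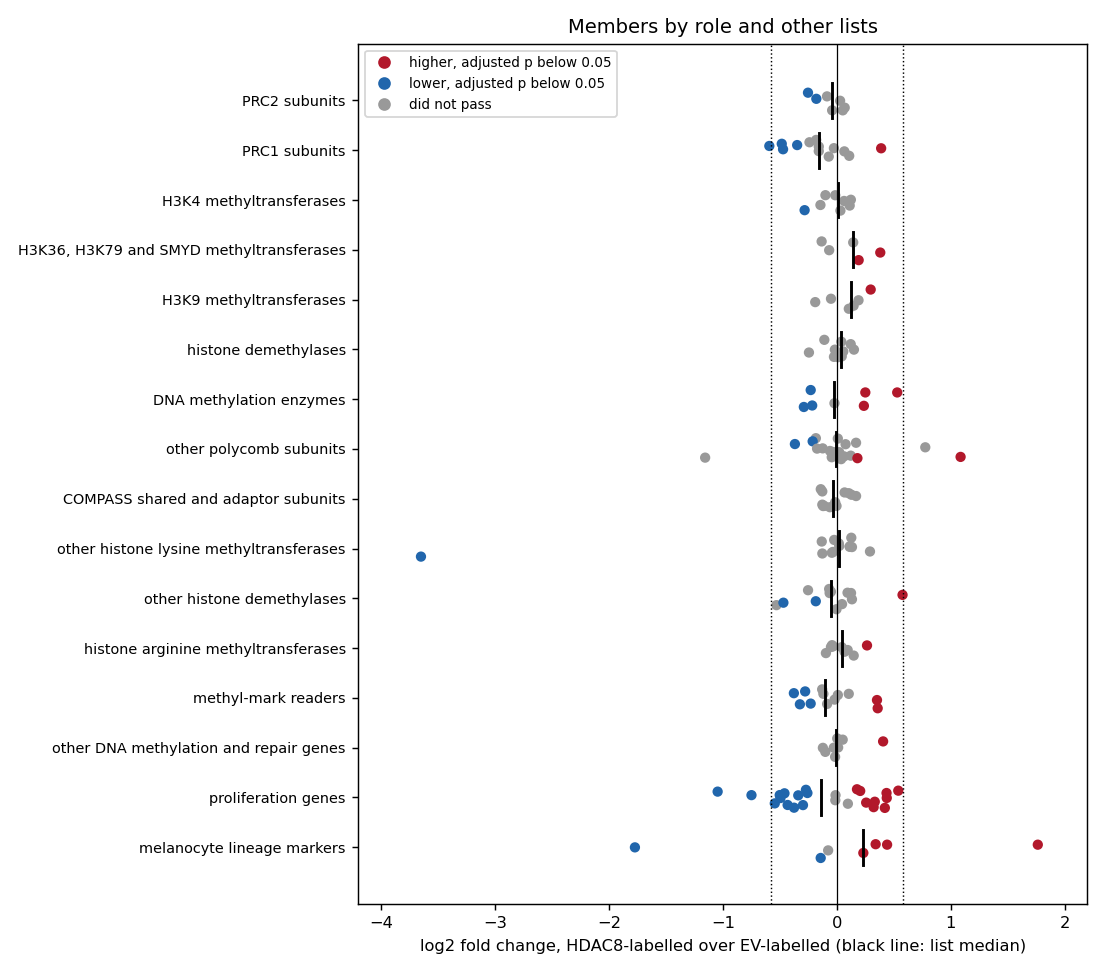
Log2 fold change of the libraries labelled HDAC8 over those labelled EV for each tested gene (point) of the 7 member groups and of 9 further lists, with the median of each list as a black line and dotted lines at 0.58 in either direction. All members but CBX6 lie between the dotted lines, AEBP2 (1.09) and MECOM (-3.65) are the genes past the test that stand outside them among the other machinery, and the proliferation genes lie on both sides of 0.

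Several members are genes of dividing cells, so 24 proliferation genes were read beside them. Of these 9 rose and 12 fell, or 87.5%, against 22.7% of all tested genes. Their summed level lay between 4636 and 4745 CPM in the EV libraries and between 4528 and 4770 CPM in the HDAC8 libraries. Named in part after their values were seen, the genes that fell were CCNE2 (log2 fold change -1.05, edgeR adjusted p = 3.46e-05), CCNE1 (-0.75, 0.00175), PCNA (-0.54, 5.25e-06), MCM2 to MCM7, E2F1, E2F2 and RRM2. The CCNE genes code cyclin E, and the MCM proteins form the replicative helicase. The genes that rose were CCNB1, which codes cyclin B (log2 fold change 0.54, edgeR adjusted p = 1.36e-05), CCNA2, CDK1, AURKA, BUB1, PLK1, CDC20, FOXM1 and TOP2A. The 3 that did not pass were MKI67 (log2 fold change 0.097, edgeR adjusted p = 0.368), TYMS (-0.012, 0.904) and AURKB (-0.014, 0.915). UHRF1, DNMT1 and EZH2 are often expressed with replication genes, and of these only UHRF1 passed the test. The part of the proliferation genes in the members' values was not tested.

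The melanocyte lineage genes moved as well, 4 of 7 rising and 2 falling, or 85.7%, against 22.7% of all tested genes. MITF had 952.5, 926.4 and 962.8 CPM in the EV libraries and 879.1, 870.2 and 826.3 CPM in the HDAC8 libraries (log2 fold change -0.14, edgeR adjusted p = 0.0263), and without EV replicate 1 (0.0878) or EV replicate 3 (0.117) it did not pass. TYR and PMEL, a pigment enzyme and a melanosome protein, rose by log2 fold changes of 0.44 (edgeR adjusted p = 1.12e-05) and 0.34 (edgeR adjusted p = 1.54e-04), and DCT, another pigment enzyme, had one of -1.77 (edgeR adjusted p = 1.13e-09). The summed markers of other cell types lay between 9.67 and 12 CPM in the EV libraries and between 8.19 and 15.8 CPM in the HDAC8 libraries, so they overlapped.

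Counting could affect some members. The estimated counts of 24 members were not whole in at least 1 library, which occurs where reads match several genes. In the GENCODE 44 annotation 41 members are overlapped by a gene on the opposite strand and 24 by a gene on the same strand, and the strand setting of the counting was not given in the sources used here.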

How the data were processed

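RNA-seq of SK-MEL-28 cells comprised 3 libraries labelled EV and 3 labelled HDAC8, grouped by the sample labels. Per the labels, RNA came from the Aurum kit and went through ribosomal RNA depletion and a directional NEBNext preparation, whereas the study's methods name the Direct-zol kit and TruSeq libraries. For each Ensembl gene the authors deposited estimated counts, not normalized, made by trimming with Trimmomatic, alignment with STAR and quantification with RSEM, and the submitters' processing notes name GRCh38. The annotation release and the strand setting were not given in the sources used here. A second deposited table holds the authors' own fold changes and p-values and 2 pooled columns, and was not used.

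Estimated counts were rounded to whole numbers. Libraries held 20850018 to 29822917 counts. The floor of 3 counts covers counting error only. In R 4.3.3, edgeR 4.0.16 (filterByExpr, TMM, glmQLFit, glmQLFTest, no block) tested 16195 genes, with Benjamini-Hochberg adjustment over all of them and a threshold of 0.05, alone or with an absolute log2 fold change of 0.58. CPM were scaled by TMM. Standard errors were obtained from the log2 fold change and the F statistic (its size over the root of F), and 95% intervals use the t quantile of the fit's degrees of freedom. The scripts were tested on simulated counts.

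Members and lists were chosen with earlier results of these data known. All 57 members were described: those past the test with each library's value, the others by range, with some that complete a complex or family given values. From each further list, up to 3 genes past the test with the largest absolute log2 fold change and a mean of at least 1 CPM were named, with MKI67 and MITF. Positions and exon lengths come from GENCODE 44 (GRCh38), in which 16010 tested genes were found by identifier. Promoters come from RefSeq (GRCh38.p14), matched by symbol for 53 members with the first listed start of a gene. Alternatives were DESeq2 1.42.0, upper-quartile normalization, no filter, at least 10 counts in every library, the replicate number as a block, each library left out, unadjusted p, glmTreat and an absolute log2 fold change of 1. The replicate numbers were checked and did not pair the libraries.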

Additional observations from a re-analysis of the deposited data

How the results depend on the processing

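All 17 members past the test kept the sign of their log2 fold change in the 11 alternative analyses of each gene, and 8 of them (BMI1, CBX6, CBX7, PHC2, PHC3, KMT2E, DNMT3B and UHRF1) also passed in all 11. The number of members that rose was 7, with 3 to 7 when a library was left out (3 without EV replicate 3), 6 with DESeq2, 7 with upper-quartile normalization, 6 with no filter, 7 with a minimum of 10 counts in each library and 10 at an unadjusted p below 0.05. The number that fell was 10, with 7 to 10 when a library was left out, and 9, 9, 10, 11 and 15 in the same order. With the criterion of 0.58 the member that fell was CBX6, and the count of 1 became 0 without EV replicate 1, 0 without HDAC8 replicate 1, 0 when the criterion was 1 and 0 with glmTreat. No member rose past that criterion in any alternative. In the further lists, of which the machinery, proliferation and melanocyte genes were counted together, 20 rose (16 to 21 with a library left out) and 23 fell (18 to 28). Among members not past the test, 4 (PCGF5, KMT2C, SETD2 and KDM1B) passed in at least 1 alternative.

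The replicate numbers shared by the groups did not pair the libraries: deviations of same-numbered libraries correlated at -0.0503, -0.121 and -0.0678 across genes, and no library correlated best with its own number. With the replicate number as a block, 6 members rose and 9 fell, and these 15 were all among the 17. EED and TET1 did not pass with the block (edgeR adjusted p = 0.0797 and 0.0671), nor did L3MBTL2 (0.0636), USP7 (0.0539) and MITF (0.0824) among the other named genes. Taken over all well-counted genes together, replicates of a group differed beyond sampling noise. The precision is therefore limited by the spread between 3 libraries a group and not by depth alone. The part of each was not separated for single members. The cause of the differences between alternatives was not tested.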
